A study of Homo sapiens with 2 samples.

Results

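The intestinal transcription factors HNF4A, CDX1, CDX2, GATA6, KLF5, ELF3 and FOXA2 and the enterocyte genes VIL1 and LGALS4 were taken by name from the gene files of a pair of colorectal cancer cell lines. They are 9 of the 36953 genes in those files, and all their transcripts, exon regions and splice junctions with deposited values were included. For HNF4A these were 4 of 5 annotated transcripts, and for ELF3 3 of 4. MIP101 is a line of colorectal cancer cells from a liver metastasis and is sensitive to 5-fluorouracil (5-FU), a pyrimidine analogue used in chemotherapy. MIP/5FU is a resistant clone obtained from MIP101 by passage in rising amounts of 5-FU, with a 10-fold higher IC50 (the dose that inhibits by 50%). MIP/5FU was kept in 5 µM 5-FU and MIP101 without it. Cultures of both lines then grew for about 48 hours without drug or antibiotics before polyadenylated RNA was taken, and each line gave 1 RNA-seq library. MIP/5FU is 1 clone, so a difference between the libraries cannot be told apart from a difference between this clone and the parental cells.

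HNF4A, CDX1 and CDX2, GATA6, KLF5, ELF3 and FOXA2 are DNA-binding proteins that act together at the regulatory regions of enterocyte genes. The CDX proteins set intestinal identity, and HNF4A and GATA6 drive genes of absorption and lipid handling. The brush border is the array of microvilli on the free surface of an enterocyte, built on actin bundles that villin crosslinks and coated with digestive enzymes. Galectin-4, a sugar-binding lectin, holds glycolipid rafts together in that membrane.

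The libraries held 200141071 reads on genes in MIP101 and 109693681 in MIP/5FU. Levels are given as reads, as RPM (reads for every 1000000 gene reads of that library), and as the authors' normalized coverage per base, the scale on which genes can be compared. With 1 library a line no difference has a replicate check, so no p-value is given. The 95% intervals are exact binomial intervals on the read counts and cover counting error only, not the spread between cultures. They take each read as independent, and reads amplified by PCR are not independent molecules, so the intervals may be too narrow. A gene was called higher or lower where its share of reads differed by at least 2-fold with an interval excluding no change and at least 100 reads over both libraries. Of the 8 epithelial markers (EPCAM, CDH1, CDH17, CLDN4 and keratins 8, 18, 19 and 20) all had reads in both libraries, summing to 7980 RPM in MIP101 and 8902 RPM in MIP/5FU. CDH17, the intestinal liver-intestine cadherin, had 353 and 225 RPM. The 15 hepatocyte markers in the files summed to 10.7 and 9.08 RPM, with APOA2, APOC3, FGA and TTR at 0 reads in both lines. Most of that sum was SERPINA1, with 6.72 and 3.90 RPM and marked by the authors as expressed in both lines, and CYP2E1, with 2.42 and 2.32 RPM and marked as expressed in neither. Epithelial genes thus stood at a high level in both lines, and ALB, the main product of hepatocytes, had 68 reads in each. As the MIP/5FU library is the smaller, equal counts mean that the ALB share of reads was higher in MIP/5FU.

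Of the 9 genes, HNF4A, VIL1 and LGALS4 were lower in MIP/5FU and none was higher. Among the 15382 genes with enough reads, 3.09% were lower and 2.53% higher by the same rule. The other 6 genes, CDX1, CDX2, GATA6, KLF5, ELF3 and FOXA2, differed by less than 1.5-fold. In bulk RNA, fewer cells making a transcript and less of it in each cell cannot be told apart. The median log2 ratio of all genes tested was 0.03, so ratios near 0 are those of an average gene.

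**Figure D1:**
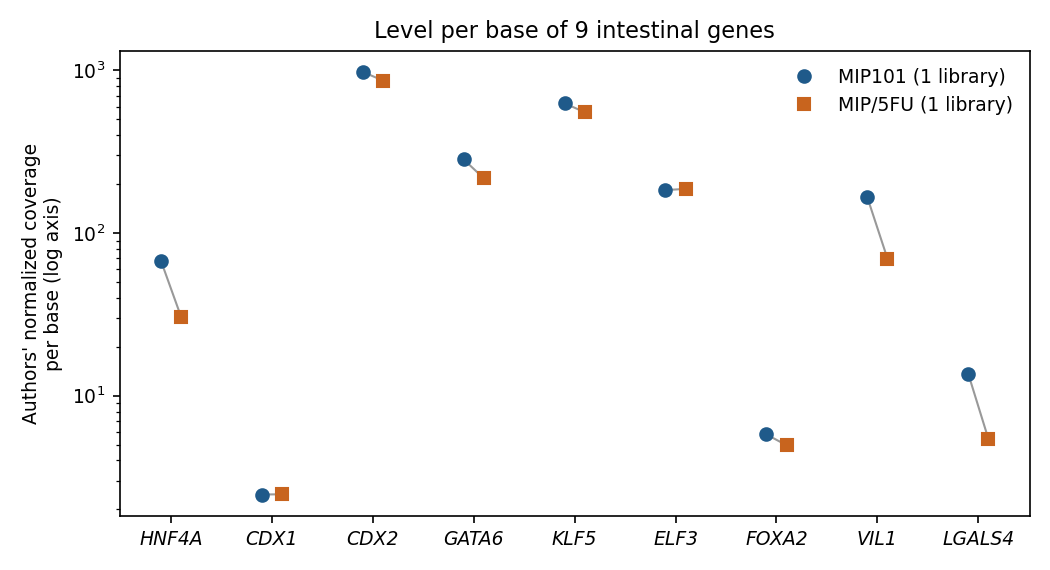
Authors' normalized coverage per base (log axis) of the 9 genes in MIP101 (circles) and MIP/5FU (squares), 1 library each, with a line joining the values of a gene. HNF4A, VIL1 and LGALS4 drop most steeply, from 67.7 to 30.6, 166 to 69.7 and 13.7 to 5.43.

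HNF4A is a nuclear receptor of liver, intestine, kidney and pancreas, and its gene lies on the plus strand at chr20:42417855-42493444 (hg18, ENSG00000101076). It starts at either of a pair of promoters. P1 lies nearer to the common exons and is used in liver and kidney, and P2 lies far upstream and is used in pancreatic islets, while intestine is known to use both. Both first exons can splice directly into the same common exon, and reads that cross such a junction tell the promoters apart. Some annotated P1 transcripts pass through exon 3 first, and these junctions do not count them. The junctions are printed as 62 bases of GENCODE 29 transcripts on GRCh38, with the common exon in capitals, because the reads across them carry the result on promoter use.
HNF4A, P2 first exon to common exon: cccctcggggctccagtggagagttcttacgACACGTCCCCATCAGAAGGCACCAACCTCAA
HNF4A, P1 first exon to common exon: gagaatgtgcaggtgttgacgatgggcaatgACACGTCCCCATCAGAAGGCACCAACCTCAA
The P2 promoter, on which nearly all first-exon reads lay, is printed as the 250 bases before the start of its transcript, from RefSeq on GRCh38.p14, plus strand, at chr20:44355449-44355698. Capitals mark the motif that was searched and found.
HNF4A P2: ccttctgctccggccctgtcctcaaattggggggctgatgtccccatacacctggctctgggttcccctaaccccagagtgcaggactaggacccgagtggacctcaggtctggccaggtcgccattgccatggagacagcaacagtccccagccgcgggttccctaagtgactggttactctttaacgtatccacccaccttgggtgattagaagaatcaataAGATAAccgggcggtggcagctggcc

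MIP101 had 5516 HNF4A reads and MIP/5FU had 1390, or 27.6 and 12.7 RPM. Its share of reads fell 2.17-fold in MIP/5FU (95% interval 2.05 to 2.31), a log2 ratio of -1.12. In coverage per base it went from 67.7 to 30.6, and its rank among protein-coding genes went from 7414 to 9438. The loss ran along the whole transcript: all 10 exon regions with enough reads had log2 ratios below 0, between -1.34 and -0.58. All 9 tested junctions were below 0 as well, between -2.15 and -0.32. Summed over all its junctions, 462 reads in MIP101 and 114 in MIP/5FU gave a log2 ratio of -1.15 (95% interval -1.46 to -0.85).

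Reads joining the P2 first exon (chr20:42417855-42417907, hg18) to the common exon 4 (chr20:42468112-42468286) numbered 17 in MIP101 and 3 in MIP/5FU. No read in either library joined the P1 first exon (chr20:42463339-42463541) to exon 4. The P2 share of these junction reads was thus 100% in MIP101 (17 of 17 reads; Clopper-Pearson 95% interval 80.5% to 100%). In MIP/5FU it was 100% of only 3 reads (29.2% to 100%), which leaves room for a large P1 share. Coverage of the first exons told the same: 15.7 and 7.0 on the P2 exon, against 0.201 and 0 on the P1 exon, in MIP101 and MIP/5FU. As a share of the coverage of exon 4 (51.6 and 24.7), the P2 exon had 30.4% in MIP101 and 28.4% in MIP/5FU. The P1 exon had 0.389% and 0%. In both libraries, then, reads on a first exon were nearly all on that of P2, and coverage of the P2 exon was lower in MIP/5FU. Exon 3 is annotated only in transcripts starting at P1. It had coverage of 3.84 and 0.81 on its longer region, ER3b, and 3 and 0 reads joined it to exon 4, but none joined the P1 exon to it. The P2 shares and intervals above leave out the reads joining exon 3 to exon 4. They hold only for direct joins of a first exon to exon 4. Coverage of a short first exon is not a count of starts, so 30.4% does not say how many transcripts begin at P2.

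**Figure D2:**
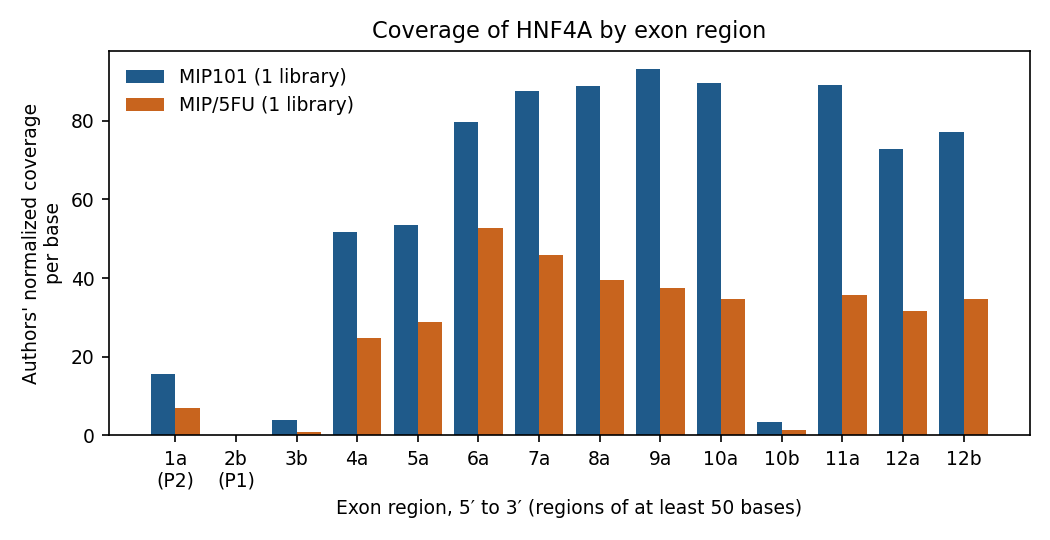
Authors' normalized coverage per base of each HNF4A exon region of at least 50 bases, in order along the gene, in MIP101 and MIP/5FU (1 library each, bars from 0). The P2 first exon reaches 15.7 and 7.0, the P1 first exon 0.201 and 0, and regions 6a to 11a apart from 10b reach 79.6 to 93.2 in MIP101 and 34.7 to 52.6 in MIP/5FU.

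No exon or junction of HNF4A was counted as moving apart from the gene. The splicing index subtracts the log2 ratio of the gene from that of the feature. It was largest for exon region 6a, at 0.54 (interval at the 0.1% level, as for all indices, -0.16 to 1.18). That region had 197 and 72 read equivalents, its coverage divided by the bases per read. Among junctions it was largest for exon 11 to exon 12, at -1.03 (-4.76 to 1.03), with 36 and 4 reads. An index was counted at 1 or more in size with that interval excluding 0. By that rule 0.709% of transcripts, 0.275% of exon regions, 0.156% of junctions and 0.864% of exon boundaries of all genes were counted. None of the 134 tested features of the 9 genes was counted, among 639 in the files (6 transcripts, 63 exon regions, 48 junctions and 17 boundaries tested).

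Of 5 short motifs searched on both strands in the 250 bases, the P2 promoter held a GATA motif (AGATAA) 26 bases before the start, a sequence found in 9.17% of 35116 RefSeq promoters. The others were the HNF4 motif CAAAGTCCA (0.325% of promoters), the CDX motif TTTATG (9.64%), the FOXA motif TGTTTAC (2.98%) and the TATA box TATAAA (10.7%), and none of them was in the P2 window. The 250 bases before the P1 start held none of the 5. A match describes the letters and does not show binding. FOXA3 had 297 and 83 reads and a log2 ratio of -0.97 (-1.34 to -0.62), just short of 2-fold. The authors marked FOXA3 as expressed in MIP101 only. HNF4G, the paralogue of HNF4A in intestine, had 1373 and 984 reads and a log2 ratio of 0.39 (0.27 to 0.51), the opposite sign to HNF4A.

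CDX2, the homeobox factor that defines the intestinal epithelium, lies on the minus strand at chr13:27434281-27441317 (ENSG00000165556). It had 47697 and 23447 reads, 238 and 214 RPM, and a log2 ratio of -0.16 (-0.18 to -0.13), or 1.11-fold lower in MIP/5FU. It was the most abundant of the 9 per base, at 980 and 867, and ranked 512 and 575 among protein-coding genes. Its 3 exon regions had log2 ratios between -0.20 and -0.14, with the largest exon index on exon 2 at -0.04. The largest index of any CDX2 feature was 0.67 (-0.83 to 2.10), on the boundary into exon 2 with 27 and 21 reads. The junction of exon 1 to exon 2 was crossed by 980 and 510 reads and that of exon 2 to exon 3 by 699 and 331. CDX2 thus differed little, while HNF4A, VIL1 and LGALS4 were lower by more than 2-fold.

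CDX1, its paralogue, at chr5:149526556-149544187 (ENSG00000113722), had only 95 reads in the MIP101 library and 52 in that of MIP/5FU. These are 0.475 and 0.474 RPM, a log2 ratio of 0.00 (-0.52 to 0.50). The authors' file marked CDX1 as not expressed in either library, and marked the other 8 genes as expressed in both. Exon 2 of CDX1 alone held 44.0% and 47.2% of its covered bases, at a coverage of 12.1 and 13.0 per base. No other region of the gene passed 2.77 in MIP101 or 2.32 in MIP/5FU. No read crossed any of the 13 junctions of CDX1 in either library, while 15 and 11 reads ran over the boundary of the intron into exon 2 and 7 and 4 out of it. Exon 2 codes for part of the homeodomain, which CDX2 shares, and the exon 2 sequences of both genes are printed from GENCODE 29 with capitals where they differ.
CDX1 exon 2: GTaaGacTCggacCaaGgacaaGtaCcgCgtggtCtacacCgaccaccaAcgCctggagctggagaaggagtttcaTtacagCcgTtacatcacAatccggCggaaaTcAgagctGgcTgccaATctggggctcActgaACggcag
CDX2 exon 2: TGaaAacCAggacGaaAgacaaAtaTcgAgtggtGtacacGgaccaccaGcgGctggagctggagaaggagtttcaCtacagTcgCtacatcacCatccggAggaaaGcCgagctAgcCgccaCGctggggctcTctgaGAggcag
The exons are 146 bases each and differ at 28 of them, an identity of 80.8%, and the longest run they share is 23 bases, shorter than a read. Coverage of CDX2 exon 2 was 1550 and 1327 per base, over 100 times that of CDX1 exon 2. Whether CDX2 reads contributed to the CDX1 count was not tested, and the CDX1 value is uncertain for that reason. It is also uncertain because no read joined exons of CDX1, so no spliced CDX1 transcript was seen in either library.

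GATA6, a zinc finger factor of gut endoderm and of the crypt, lies at chr18:18003414-18036225 (ENSG00000141448). It had 22983 and 9785 reads, 115 and 89.2 RPM, and a coverage of 284 and 217 per base. Its log2 ratio was -0.36 (-0.40 to -0.33), 1.29-fold lower, the largest difference among the 6 genes that stayed under 2-fold. All 7 exon regions had ratios below 0, from -0.63 to -0.19. The largest index was -0.27 (-0.55 to 0.00) among exon regions, at 3a, and -0.56 among junctions, at exon 2 to exon 3 with 206 and 59 reads. Among boundaries it was -0.73 (-2.36 to 0.55), at the end of exon 5 with 60 and 15 reads. GATA4 and GATA5, the other gut GATA factors, had 0 reads in both libraries, and a count of 0 allows up to 3 reads.

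KLF5, a Krüppel-like factor of proliferating crypt cells, lies at chr13:72530931-72549654 (ENSG00000102554). It had 51290 and 25269 reads, 256 and 230.4 RPM, and a coverage of 627 and 554 per base. Its log2 ratio was -0.15 (-0.18 to -0.13), nearly that of CDX2. Its 4 exon regions lay between -0.21 and -0.06, and the largest exon index was 0.10, on region 3a. Among junctions the largest was 0.14, at exon 3 to exon 4 with 418 and 226 reads, and the 1 tested boundary, into exon 4, had 0.66 (-1.63 to 2.78) on 13 and 10 reads. KLF4, the related factor of differentiated surface and goblet cells, had 2055 and 1983 reads and a log2 ratio of 0.82 (0.73 to 0.91).

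FOXA2, a forkhead factor that opens chromatin in endoderm, lies on the minus strand at chr20:22509823-22514102 (ENSG00000125798). It had 326 and 158 reads, 1.63 and 1.44 RPM, and a coverage of 5.79 and 4.96 per base. Its log2 ratio was -0.18 (-0.46 to 0.10), an interval that holds 0 and a fold of up to 1.38 lower. Exon region 3a, the only one tested, had an index of 0.00 (-0.49 to 0.48), and junction reads were 2 in each library. FOXA1, the relative that stood far above it in these lines, had 31942 and 24087 reads and a log2 ratio of 0.46 (0.44 to 0.48).

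ELF3, an epithelium-specific ETS factor that acts in enterocyte maturation, lies at chr1:200243696-200251760 (ENSG00000163435). It had 21218 and 11985 reads, 106 and 109 RPM, and a coverage of 184 and 187 per base. Its log2 ratio of 0.04 (0.01 to 0.08) was the highest of the 9. It was -0.01 when the libraries were scaled by TMM factors, so its direction depends on the scaling. The largest indices were 0.39 on exon region 1e (-0.45 to 1.21), -0.33 on the junction of exon 4 to exon 5 (-0.89 to 0.20, 256 and 115 reads) and 1.08 on the boundary into exon 2 (-1.11 to 3.38, 10 and 12 reads).

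In both lines ELF3 RNA also carried a splice form and unspliced reads around exon 3. A junction that skips exon 3 (from chr1:200247929 to chr1:200248391, hg18) is in 0 Ensembl transcripts of the annotation used and is supported there by 0 mRNAs and 1 EST. The sequences of the included and skipped joins are printed from GENCODE 29, with the downstream exon in capitals.
ELF3 exon 2 to exon 3: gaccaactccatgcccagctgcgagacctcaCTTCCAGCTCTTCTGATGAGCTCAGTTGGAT
ELF3 exon 2 to exon 4: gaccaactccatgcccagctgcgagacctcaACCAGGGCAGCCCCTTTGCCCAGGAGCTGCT
The skipping join was crossed by 65 reads in MIP101 and 40 in MIP/5FU. The join of exon 2 to exon 3 had 127 and 77 reads, and that of exon 3 to exon 4 had 186 and 106. Against the mean of the joins that include exon 3 (156 and 92 reads), the skipped share was 29.4% (Clopper-Pearson 23.5% to 35.9%) in MIP101 and 30.3% (22.6% to 38.9%) in MIP/5FU. The share was alike in the lines to within these intervals, which leave room for a difference of several percentage points. The intervals take the mean as a count of reads, so they do not cover the difference between the joins that include exon 3.

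Reads that ran from an ELF3 exon into the intron beside exon 3 were frequent at the same place. At the end of exon 2 they were 44.2% of the reads at that splice site in MIP101 (153 of 346; 38.9% to 49.6%) and 37.8% in MIP/5FU (71 of 188; 30.8% to 45.1%). At the start of exon 3 they were 56.1% (162 of 289; 50.1% to 61.9%) and 45% (63 of 140; 36.6% to 53.6%). At the end of exon 3 they were 41.3% and 41.4%, and at the start of exon 4 21.6% and 17.0%. At the other edges that no Ensembl transcript runs across and that reached 20 reads in each library, no share passed 4.60% in MIP101 or 7.41% in MIP/5FU. Over 173277 such splice sites of all genes the median was 0.694% in MIP101 and 0.637% in MIP/5FU, and the 95th percentile 19.3% and 21.1%. The edges of exon 3 and the end of exon 2 were thus above the 95th percentile in both lines. At each of these edges and at the start of exon 4, the annotation used counts 1 mRNA that runs across. It also counts 7 ESTs at the end of exon 2 and 1 EST at the start of exon 3. At the other genes the highest shares were 14.3% and 13.7% for VIL1, at the end of exon 5, with a median over 36 sites of 0.386% and 0%. For GATA6 the highest were 14.7% at the end of exon 5 in MIP101 and 15.5% at the start of exon 3 in MIP/5FU. RNA was treated with DNase, and reads from unspliced RNA, from a retained intron and from an overlapping transcript cannot be told apart here.

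**Figure D3:**
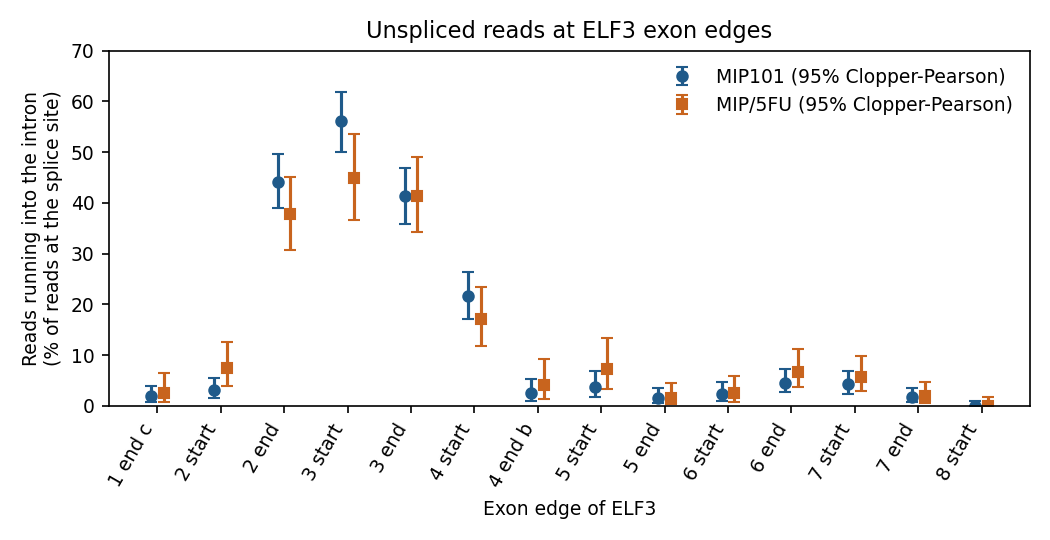
Share of reads that run into the intron at the 14 ELF3 exon edges that no Ensembl transcript crosses (percent, Clopper-Pearson 95% bars), in MIP101 and MIP/5FU. The end of exon 2 and both edges of exon 3 stand between 37.8% and 56.1%, and the plotted edges outside the introns beside exon 3 at 7.41% or less.

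VIL1 encodes villin, the actin-bundling protein of microvilli, and lies at chr2:218992089-219026262 (ENSG00000127831). MIP101 had 25020 VIL1 reads and MIP/5FU 5855, or 125 and 53.4 RPM, and its coverage per base went from 166 to 69.7. VIL1 fell 2.34-fold (2.28 to 2.41), a log2 ratio of -1.23 (-1.27 to -1.19), and its rank went from 4249 to 7244. All 21 tested exon regions were below 0, from -1.51 to -0.74, and all 19 tested junctions, from -1.70 to -0.79. Its junction reads summed to 5019 and 1114, a log2 ratio of -1.30 (-1.40 to -1.21). The largest indices were 0.49 on exon region 3a (-0.35 to 1.24) and -0.47 on the junction of exon 2 to exon 3, with 38 and 6 reads. The fall of VIL1 was therefore seen along the whole gene, by amounts that differed between regions. Exon regions 4a to 19a had a coverage of 257 to 423 in MIP101, but the long 3′ region of the last exon, VIL1 exon region 20b, had 31.9 and 13.6 against 296 and 140 on region 20a.

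LGALS4 encodes galectin-4 and lies on the minus strand at chr19:43984152-43995425 (ENSG00000171747). MIP101 had 358 LGALS4 reads and MIP/5FU 79, or 1.79 and 0.720 RPM, and a coverage of 13.7 and 5.43 per base. LGALS4 fell 2.47-fold (1.94 to 3.21), a log2 ratio of -1.31 (-1.68 to -0.96). Its 4 tested exon regions lay between -1.39 and -0.78, with the largest index on region 4a, 0.53 (-1.12 to 1.87, 48 and 15 read equivalents). Its junction reads, 73 and 16, gave -1.29 (-2.20 to -0.53). LGALS4 is the least deeply read of the 3 genes that fell, and its interval is the widest. That interval spans those of HNF4A and VIL1, so the place of LGALS4 in the order of the 3 is unsettled.

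In coverage per base in MIP101 the order was CDX2 (980), KLF5 (627), GATA6 (284), ELF3 (184), VIL1 (166), HNF4A (67.7), LGALS4 (13.7), FOXA2 (5.79) and CDX1 (2.47). In MIP/5FU it was the same, at 867, 554, 217, 187, 69.7, 30.6, 5.43, 4.96 and 2.48, with LGALS4 and FOXA2 now close. With 1 library a line it cannot be judged whether neighbours in that order differ beyond replicate spread. The order also rests on annotated length: ELF3 exon regions 5a to 7a had 455 to 557 in MIP101, against 184 over the whole gene, because long and little-read end regions lower the mean of ELF3 and of VIL1.

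RefSeq promoters were found for 6 of the 9 genes, 8 in all. Besides the HNF4A match, the CDX2 promoter held the GATA motif 119 bases and the FOXA motif 13 bases before the start, both on the opposite strand. The ELF3 promoter held a TATA box 34 bases before the start and 1 KLF5 promoter held it at 194 bases. The GATA6 and LGALS4 promoters and the other KLF5 promoter held none of the 5 motifs.

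Because MIP/5FU is a clone, each gene was set beside the 40 nearest protein-coding genes with enough reads. Around HNF4A their median log2 ratio was -0.02, and all 40 were higher than HNF4A itself (range -1.06 to 1.94). Around VIL1 the median was 0.05, and all 40 lay above VIL1 (range -0.88 to 1.17). Around LGALS4 it was 0.05, and all 40 lay above LGALS4 (range -0.80 to 0.76). No neighbour, within 1.96, 2.28 and 1.03 Mb, fell as far as HNF4A, VIL1 or LGALS4. Around ELF3, on chromosome 1, the median was -0.21 and 30 of 40 lay below ELF3. Around CDX2 it was 0.13, around GATA6 0.09 and around KLF5 -0.08, with 33, 35 and 26 of 40 above the gene. These neighbours lay up to 4.39, 5.48 and 21.5 Mb away, so those of KLF5 are not local. Around CDX1 and FOXA2 the medians were 0.01 and 0.00, over neighbours up to 3.93 and 7.15 Mb away.

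**Figure D4:**
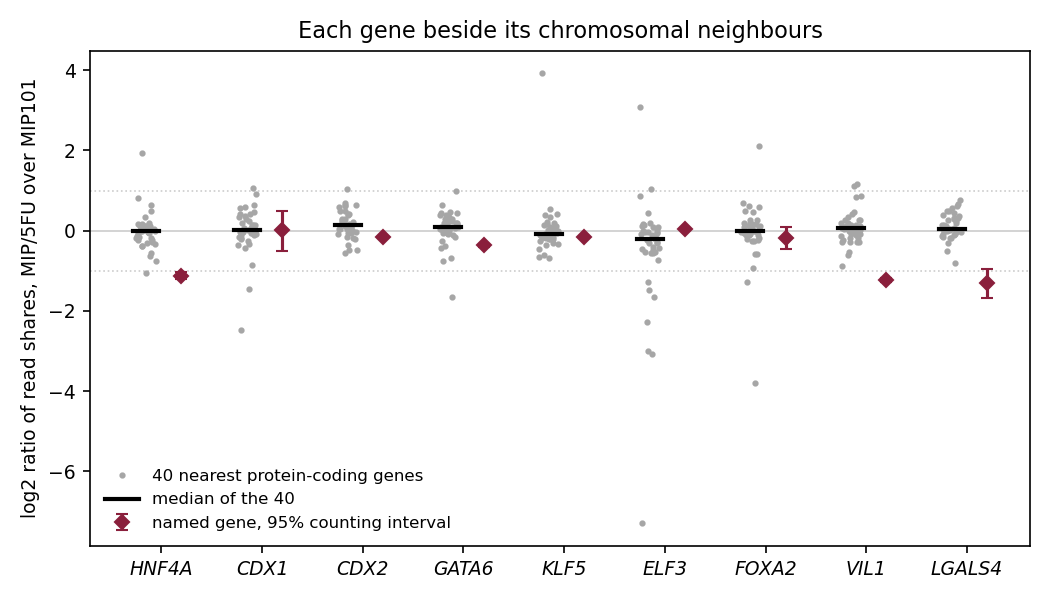
log2 ratio (MIP/5FU over MIP101) of the 9 genes (diamonds with 95% counting interval) beside their 40 nearest protein-coding genes (grey points) and the median of these (black bar). HNF4A, VIL1 and LGALS4 lie below all 40 of their neighbours, whose medians are -0.02, 0.05 and 0.05.

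Of 39 listed intestinal factors, 33 were tested, among them 7 of the 9 genes above. By the 2-fold rule 1 rose and 1 fell. The median log2 ratio was -0.01, or 0.03 without those 7, and 0.03 over all genes. By the same rule 2.53% of all genes tested were higher and 3.09% lower, the background for each list below. SPDEF, a factor of goblet cells, rose 2.24-fold (1.85 to 2.72) on 196 and 241 reads, and the factor that fell was HNF4A. SOX9, the crypt factor, had 166340 and 89624 reads and a log2 ratio of -0.02, and ASCL2, the stem cell factor, 24518 and 19257 reads and 0.52.

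Of 30 brush border structure genes, 27 were tested, 1 rose and 4 fell, with a median of -0.02. EPS8L3, a relative of the microvillus capping protein EPS8, went from 3778 to 103 reads and fell, with a log2 ratio of -4.32 and an interval of 16.5-fold to 24.7-fold. PDZK1, a scaffold of apical transporters, went from 442 to 48 reads and fell 5.00-fold (3.74 to 6.95). ESPN, the bundler espin, went from 211 to 36 reads and fell 3.18-fold (2.25 to 4.71), and VIL1 was the remaining one. MYO1A, the myosin that ties the microvillus core to the membrane, rose 2.44-fold (1.94 to 3.10) on 129 and 173 reads. The authors marked MYO1A, ESPN and CDHR2 as expressed in neither line, and EPS8L3 and PDZK1 as expressed in MIP101 only. CDHR2 (PCDH24 in the files), an adhesion link between microvilli, had a log2 ratio of 0.70, the syntaxin STX3 0.61, and EZR (VIL2 in the files), the ezrin linker, -0.37 on 106715 and 45407 reads. The structure genes moved both ways, with 14 of 27 ratios below 0, against 7120 of the 15382 genes tested.

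**Figure D5:**
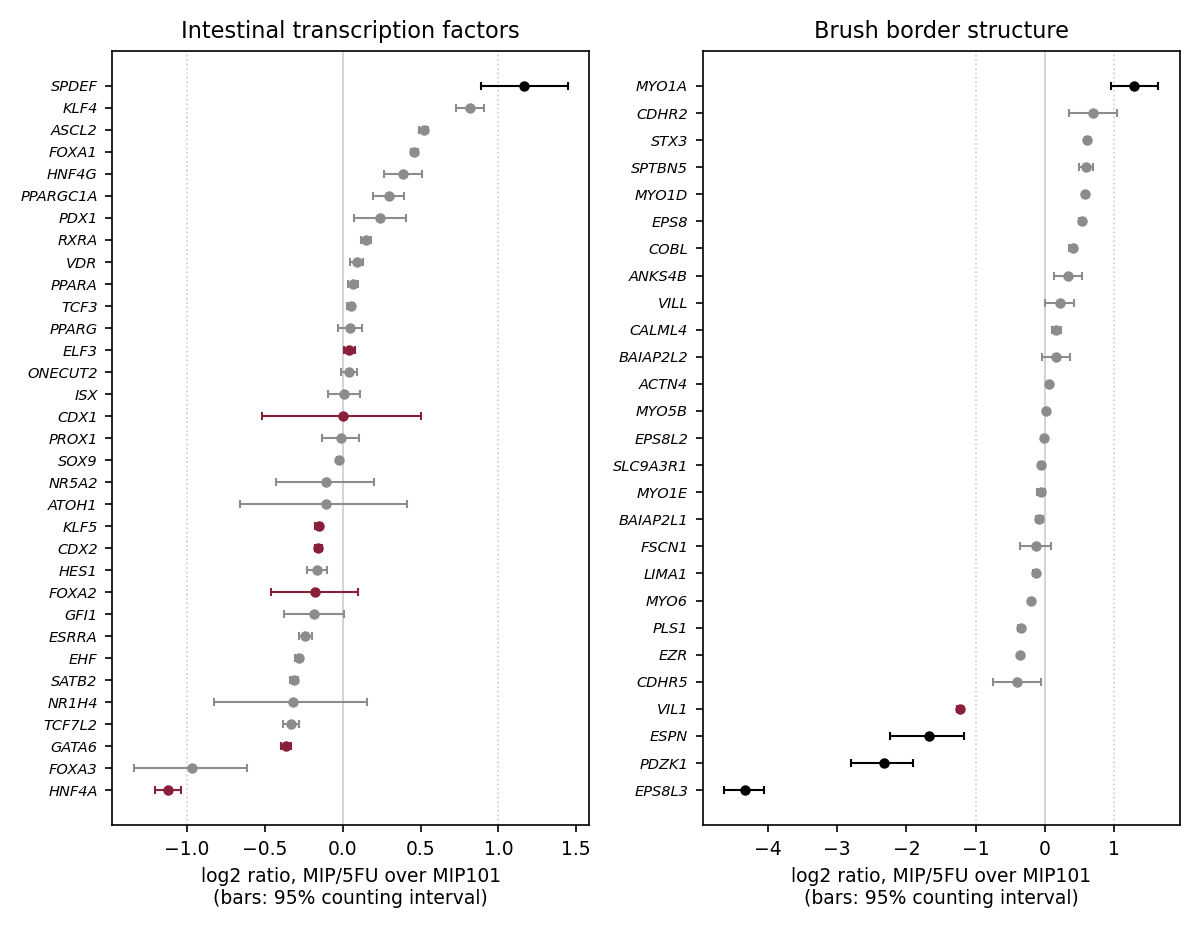
log2 ratio (MIP/5FU over MIP101, 95% counting intervals) of the tested intestinal factors (left) and brush border structure genes (right); red marks the genes named at the start, black other genes past 2-fold and grey the rest. HNF4A (-1.12) is the lowest factor and SPDEF (1.17) the highest, and EPS8L3 (-4.32) and MYO1A (1.29) bound the brush border genes.

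Brush border enzymes and transporters were little read: 12 of 28 were tested, 0 rose and 1 fell, with a median of 0.17. MME, the peptidase neprilysin, fell 2.47-fold (1.58 to 4.19) on 101 and 22 reads. SLC7A9 and SLC5A1, carriers of amino acids and glucose, had log2 ratios of 0.74 and 0.73 on 73 and 67 and on 153 and 139 reads. SLC9A3, the sodium-proton exchanger, had 0.45 on 3502 and 2628 reads. The authors marked MME, SLC7A9 and SLC9A3 as expressed in neither line, and SLC5A1 as expressed in MIP/5FU only. Of the galectins 12 were in the files, 5 were tested, 0 rose and 1 fell (LGALS4), with a median of -0.81 (-0.46 without LGALS4). LGALS9 had 149 and 41 reads (-0.98), LGALS8 21877 and 6826 (-0.81), LGALS3 92128 and 56093 (0.15) and LGALS1 198 and 101 (-0.10). LGALS9 has near-identical copies and was marked by the authors as expressed in neither line, so its value is uncertain.

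Of 32 genes known as targets of HNF4A or of partner factors, 11 were tested, 0 rose and 2 fell, with a median of -0.09. CYP2J2, an arachidonic acid epoxygenase, went from 13698 to 2821 reads and fell 2.66-fold (2.55 to 2.77). CLDN2, a pore-forming tight junction protein, went from 8547 to 1762 reads and fell 2.66-fold (2.53 to 2.80). SERPINA1 had a log2 ratio of -0.78 (1345 and 428 reads) and CYP2S1 of 0.60 (3915 and 3245 reads). The apolipoproteins APOA1, APOA2, APOA4, APOC2, APOC3 and APOH, with TTR, TM4SF4 and FGA, had 0 reads in both lines. Most of the classical targets were therefore too low to compare.

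Of 28 genes known as targets of the CDX proteins, 22 were tested, 4 rose and 2 fell. The median was 0.17, or 0.34 without VIL1 and LGALS4. Those that fell were VIL1 and LGALS4. KRT20, the keratin of differentiated surface cells, went from 572 to 2124 reads and rose 6.77-fold (6.17 to 7.44). AGR2, a protein of mucin folding, rose 3.02-fold (2.97 to 3.08), from 96.9 to 293 RPM. The mucins MUC13 and MUC2 each rose 2.19-fold, on 5112 and 6128 reads and on 100 and 120 reads. ABCB1, the drug efflux pump, had a log2 ratio of -0.87 and TFF3 -0.85. CDX2 itself differed by 1.11-fold, and its part in the values of VIL1 and LGALS4 was not tested.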

How the data were processed

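Polyadenylated RNA of MIP101 and MIP/5FU was sequenced, 1 library each, as paired reads of 36 or 42 bases, per the labels. The protocol marks no strand, so overlapping genes cannot be told apart. Reads were placed on features of Ensembl 53, per the file names, on hg18, per the submitters' processing notes, with an aligner not given in the sources used here. The deposited gene, junction and boundary files hold raw read counts. The authors' coverage is the sum of read bases over a feature, and their normalized coverage per base applies 1 factor per library. The percent of a gene covered at least once, as deposited, was read but is not reported. The exon region files and the transcript files as deposited give coverage without counts of reads, so coverage was divided by the mean bases per read (40.4 in MIP101, 39.8 in MIP/5FU) and rounded to read equivalents, in place of the reads that had been planned.

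Gene ratios are log2 of shares of gene reads after adding 0.5 reads, with exact conditional binomial 95% intervals. A splicing index needed 50 read equivalents (transcripts, exon regions) or 20 reads (junctions, boundaries) over both libraries, and its gene 200 reads in all with 10 or more per library. Named genes were the 9 members, up to 4 further genes of each list with the largest absolute ratio, and all counted genes where 5 or fewer. HNF4G, SOX9, ASCL2, FOXA1, GATA4, GATA5, CDHR2, STX3, EZR, CDH17, ABCB1, TFF3, MUC5AC, CYP2E1, ALB and the ELF3 splicing and CDX1 coverage were added after their values were seen. The members and lists were chosen with earlier results of these data known. Sequences came from GENCODE 29 (GRCh38) and RefSeq (GRCh38.p14). Some genes and motifs are not reported here and were left out of the lists. Scripts were tested on simulated data. Tools were Python 3.11.15, numpy 2.4.6, pandas 2.3.3, scipy 1.17.1, matplotlib 3.10.9, R 4.3.3 and edgeR 4.0.16 (TMM factors only). Alternatives were median ratio and TMM scaling, normalized coverage, 5 added reads, other folds and minima, other index rules, and 20 or 80 neighbours.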

Additional observations from a re-analysis of the deposited data

How the results depend on the processing

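The counts of the 9 genes, 3 lower and 0 higher, were the same under median ratio and TMM scaling, the authors' normalized coverage, 5 added reads, a 1.5-fold limit and no read minimum. With at least 500 reads 2 were lower, since LGALS4 has fewer reads, and at 4-fold 0 were. Genes of the related lists numbered 6 higher and 9 lower. They numbered 16 and 16 at 1.5-fold, 1 and 2 at 4-fold, and 3 and 5 with at least 500 reads, as those rules admit more or fewer genes. The count of features with a splicing index, 0, did not change under 5 other rules. The median around CDX1 was 0.15 over 20 neighbours against 0.01 over 40; the cause was not tested. Of 36 ratios of the 9 genes under other scalings or added reads, 27 stayed within their interval and 9 moved beyond it. ELF3 ranged from -0.01 to 0.04 and CDX1 from -0.04 to 0.06, while HNF4A stayed between -1.17 and -1.12, VIL1 between -1.28 and -1.23 and LGALS4 between -1.35 and -1.24. Over all genes 389 were higher and 475 lower (45.0% higher). The split was 1334 and 1252 at 1.5-fold (51.6%), 48 and 135 at 4-fold (26.2%), 968 and 858 with no minimum and 220 and 299 with at least 500 reads (42.4%). No paired analysis was possible because each line has 1 library, and for the same reason no replicate could be left out. Depth limits the promoter share in MIP/5FU (3 reads), CDX1 and FOXA2.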

Other observations

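Markers of other cell types gave these values. Of 19 gastric and pancreatic markers 6 were tested, 0 rose and 2 fell, with a median log2 ratio of -0.67, and they summed to 65.8 RPM in MIP101 and 58.2 RPM in MIP/5FU. TFF1, the gastric trefoil peptide, went from 332 to 73 reads and fell 2.48-fold (1.93 to 3.26). PRSS1, a trypsinogen with near-identical copies, went from 134 to 30 reads and fell 2.42-fold (1.64 to 3.77). MUC6, the gland mucin, had 4508 and 1268 reads and a log2 ratio of -0.96 (-1.05 to -0.87), and CLDN18, a claudin of stomach and lung, 261 and 187 reads and 0.39. MUC5AC, the gastric surface mucin, had 7729 and 4713 reads and a log2 ratio of 0.15. GKN1, GKN2, CPA1, PNLIP, GCG and PTF1A had 0 reads in both lines.

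Of 16 fibroblast, endothelial and blood markers 6 were tested, 0 rose and 1 fell, with a median of 0.16, and they summed to 23.1 and 19.8 RPM. The gene that fell was COL3A1, a fibrillar collagen, from 1659 to 38 reads, or 23.6-fold (17.4 to 33.9), while COL1A2, DCN, LUM, CDH5 and HBB had 0 reads in both. Of the hepatocyte markers 5 were tested, 1 rose and 0 fell, with a median of 0.36. HPX, the heme carrier hemopexin, rose 2.09-fold (1.63 to 2.69) on 123 and 141 reads. Of the 8 epithelial markers 1 rose (KRT20) and 0 fell, with a median of 0.23. The part of these markers in the values of HNF4A, VIL1 and LGALS4 was not tested.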
